A study of Homo sapiens with 2 samples.

Results

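The 8 genes described here encode the structural proteins of caveolae, the small flask-shaped pits of the plasma membrane: the caveolins CAV1, CAV2 and CAV3, the cavins CAVIN1, CAVIN2, CAVIN3 and CAVIN4, and the neck ATPase EHD2. They were taken from 20163 protein-coding genes of the nuclear chromosomes by name, as a family selected on the promoter difference of CAVIN3 between the 2 libraries of the study. Their differences between the lines are therefore given as descriptions, with no test. DNA methylation was measured by whole-genome bisulfite sequencing in 2 human acute myeloid leukemia (AML) cell lines, both grown in DMEM with 10% FBS. OCI-AML3 is the DNMT3A mutant line and carries R882C on 1 allele of this de novo DNA methyltransferase, and OCI-AML5 is wild type for DNMT3A. Each line was 1 library with no replicate and no treatment, so the DNMT3A genotype and every other difference between the lines cannot be told apart.

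Caveolins are hairpin-shaped membrane proteins that oligomerise and bind cholesterol. Cavins are cytoplasmic coat proteins that trimerise and assemble on caveolin-rich membrane, and EHD2 holds the neck of the pit at the surface. Caveolae are abundant in fat, endothelial and muscle cells and sparse in most blood cells. CpG dinucleotides of most of the genome are methylated, whereas dense clusters of CpGs at gene starts (CpG islands) are mostly unmethylated, and methylation of such an island is a mark commonly found at silent genes.

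The level of a CpG was its methylated calls over all calls, and means were taken over CpGs with more than 5 reads in both lines. The tables listed 28217448 CpGs with 902802339 calls in OCI-AML3 and 894828667 in OCI-AML5, a median of 27 and 30 calls per nuclear CpG. At these medians a single CpG without a methylated call can still have a level of up to 11.1% or 10.0%. Intervals below are Wilson 95% intervals of pooled calls and cover counting error only, and since 1 read can give calls at several CpGs they can be too narrow. Over the 24454751 CpGs used, OCI-AML3 averaged 67.6% and OCI-AML5 75.4%, a difference of −7.77 percentage points over the genome. Promoters of blood and myeloid genes did not all look alike: SPI1, a myeloid transcription factor, was at 11.5% in both lines and CEBPA, a granulocytic one, at 1.82% and 6.01%, whereas MPO, a granule enzyme, was at 93.2% and 90.3%. Of 6 blood and myeloid promoters 2 were below 20% in both lines, and of 6 promoters of other tissues 0 were below 20% in either. The share of all promoters below 20% was not computed, so these counts cannot serve as a check of cell identity.

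A promoter window reached 2000 bp before and after the first annotated transcription start site (TSS) of the gene. The mean of all 8 caveola promoters was lower in OCI-AML3, as that of 84.7% of the 19667 promoters tested was. The median difference was −16.0 points over the 8 and −4.68 over all promoters. A decrease of over 20 points was seen at 2 of the 8, CAVIN3 and CAV2, against 8.61% of all promoters. The family was chosen on the CAVIN3 value, so in this count only CAV2 is free of that choice. With the canonical start of CAV2 in place of its first one, CAV2 missed this threshold and the count was 1, CAVIN3 itself. None of the 8 was higher by over 20 points (0 of 8), against 1.79% of all promoters. Of the 3 members with at least 100 CpGs in the window, 1, CAVIN3, was lower by over 20 points, against 4.92% of such promoters. It is the member that the family was chosen on. The other members of this group, CAV1 and CAVIN1, differed by −0.715 and −15.5 points.

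The 8 promoters fell into different classes. CAV1 alone was below 20% in both lines, and CAV3, CAVIN2 and CAVIN4 were above 66% in both. Shares of all promoters in these classes were not computed, so the counts cannot set the family apart. CAVIN3 was the 1 member below 20% in OCI-AML3 and above 66% in OCI-AML5, a combination found at 29 of all promoters, or 0.147%. The family was chosen on the difference between these levels, so this share is no independent result. The other three, CAV2, CAVIN1 and EHD2, held intermediate levels in at least 1 line. EHD2 lay just outside the 20-point threshold with a difference of −19.4, and passed it at −22.1 over CpGs with at least 10 reads.

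**Figure D1:**
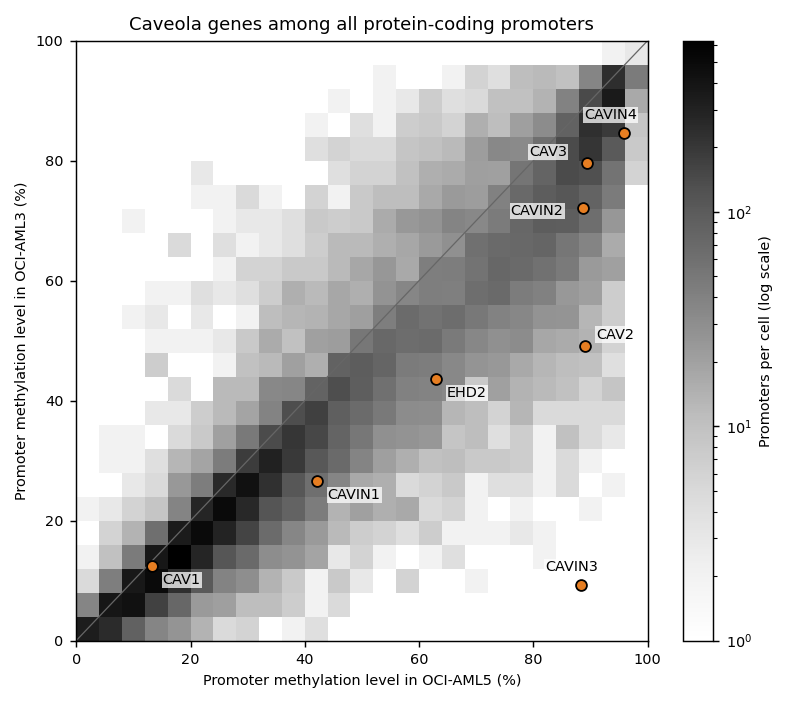
Mean promoter methylation level of all 19667 protein-coding promoters in OCI-AML5 (x axis, percent) and OCI-AML3 (y axis, percent), shaded by the number of promoters per cell on a log scale, with the 8 caveola genes as orange points and equal levels as a line. CAV1 lies near the line at 12.5% and 13.2%, and CAVIN3 lies at the lower right with 9.24% in OCI-AML3.

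Single CpGs gave a finer count. The 8 promoter windows listed 822 CpGs, of which 784 had more than 5 reads in both lines. At 284 of them (36.2%) the intervals of the lines did not overlap with OCI-AML3 lower, against 14.6% of all CpGs, and at 27 (3.44%) with OCI-AML3 higher, against 3.83%. These sets are not alike in depth, on which the separation of intervals depends. The 8 windows had means of 28.8 (CAV2) to 69.3 (CAV1) calls per CpG in OCI-AML3 and 24.3 (CAV2) to 37.7 (CAVIN2) in OCI-AML5. The medians over all CpGs were 27 and 30, and a mean and a median are unlike measures. A share over promoter CpGs or CpGs of equal depth was not computed. CAVIN3 supplied 137 of the lower CpGs. Without it, 147 of 633 (23.2%) were lower. The 27 higher CpGs lay at CAV1 (17) and CAVIN1 (10).

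CAVIN3, known earlier as PRKCDBP, encodes a cavin that binds protein kinase C delta and is the shortest gene of the family, 1587 bp on the minus strand (chr11:6340176-6341762, GRCh37). Its whole body lies inside the promoter window, so promoter and body are not separate readings. In OCI-AML3, 131 CpGs in a row were below 20%, over 2127 bp (chr11:6340320-6342446) from −684 to 1442 bp relative to the start. The mean over the 129 of them with reads in both lines was 1.08% in OCI-AML3 and 87.7% in OCI-AML5. The stretch covers the upstream region, exon 1, intron 1 and most of exon 2.

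From 500 bp before to 1000 bp after the CAVIN3 start, 96 CpGs averaged 0.219% in OCI-AML3 and 86.1% in OCI-AML5. Of the 96, 82 had no methylated call in OCI-AML3 and the highest stood at 2.78%. The share of pooled calls was 0.237% (interval 0.144 to 0.391) in OCI-AML3 and 88.7% (87.5 to 89.9) in OCI-AML5. These intervals lie far apart, and the same held in the exons and the intron. Exon 1 was at 0.309% and 87.9%. Intron 1 had 0 methylated calls of 1228 in OCI-AML3, which allows up to 0.244%, and a mean of 91.9% in OCI-AML5. Exon 2, where the stretch ends, was at 10.3% and 95.5%. OCI-AML5 was not evenly methylated: of the 151 CpGs of the promoter window, 138 were above 66% there and 3 were below 20%.

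The means of the lines lay closer together beyond 2 kb on either side. From 5000 to 2000 bp before the start, 22 CpGs averaged 87.5% in OCI-AML3 and 86.5% in OCI-AML5, although at a mean depth of only 8.54 calls per CpG in OCI-AML5. From 2000 to 5000 bp after the start, 30 CpGs averaged 55.6% and 61.5%, although a block of 3 CpGs there (chr11:6337914-6337927) was at 50.4% and 87.6%. Within 500 kb of CAVIN3, 24 of 100 windows of 10 kb were lower by over 20 points in OCI-AML3, without a share over the genome to set this against. The nearest genes did not share the pattern: the promoter of CCKBR, a gastrin receptor, was higher in OCI-AML3 (59.7% against 20.7%) and that of SMPD1, acid sphingomyelinase, was at 38.8% and 42.1%.

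**Figure D2:**
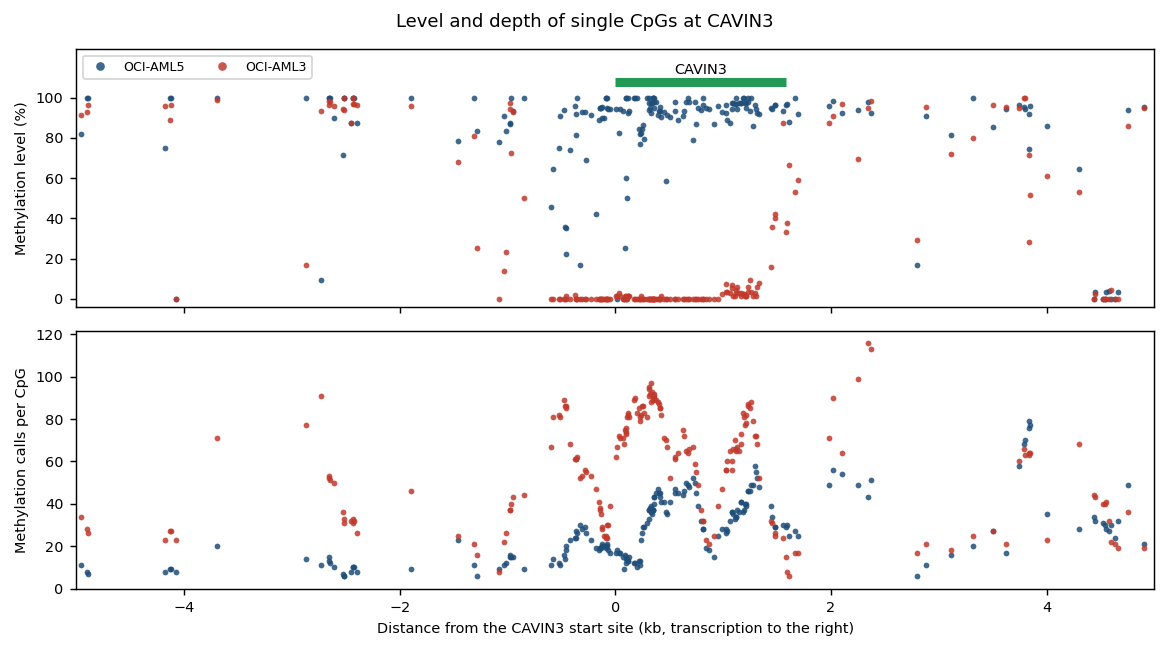
Methylation level (top, percent) and number of calls (bottom) of each CpG with more than 5 reads in both lines, by distance from the CAVIN3 start in kb, with OCI-AML3 in red, OCI-AML5 in blue and the gene as a green bar. The 131 CpGs in a row below 20% in OCI-AML3 run from −684 to 1442 bp relative to the start, and OCI-AML3 had more calls than OCI-AML5 over most of that stretch.

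Depth moved with this result. The CAVIN3 promoter had 58.8 calls per CpG in OCI-AML3 and 27.4 in OCI-AML5, a ratio of 2.15, against a median ratio of 1.27 over all promoters and 1.37 over those with at least 100 CpGs, and 1.55% of promoters had a higher ratio. The part of depth in the difference was not tested. By its pair of levels, the promoters nearest to CAVIN3 were those of CES1, a carboxylesterase (4.44 points away), PDE1A, a phosphodiesterase (5.19), LAT, an adaptor of T cell receptor signalling (5.81), RUNX3, a transcription factor (8.20), and CTSG, a neutrophil granule protease (8.26). The distance is over 2 libraries only. CAVIN3 ranked at place 3 of 19667 promoters by the size of its decrease. The family was chosen on this decrease, so the rank is a description of that choice and no independent result.

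CAV1 encodes the main caveolin of non-muscle cells. Its promoter (chr7:116163048-116167048, plus strand) averaged 12.5% in OCI-AML3 and 13.2% in OCI-AML5 over 168 CpGs. This near-equality was the sum of opposite parts, with 17 CpGs lower and 17 higher in OCI-AML3. In the 500 bp before the start, the mean was 6.28% in OCI-AML3 and 28.8% in OCI-AML5. In the 500 bp after it, the order was turned, with 13.7% and 3.16%.

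The lower CpGs of CAV1 sat at the edge of the island. A block of 13 CpGs in a row with separate intervals lay at −625 to −273 bp from the start (chr7:116164423-116164775), at 15.8% in OCI-AML3 and 73.3% in OCI-AML5. In the 250 bp next to the start, which hold 18 CpGs, the means were 7.56% and 7.24%.

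The higher CpGs of CAV1 lay in the transcribed side of the island. A block of 6 CpGs across the end of exon 2 (chr7:116166696-116166756, 1648 to 1708 bp after the start) was at 41.8% in OCI-AML3 and 7.51% in OCI-AML5. A block of 3 CpGs in intron 1 was at 18.5% in OCI-AML3, with 0 of 135 calls methylated in OCI-AML5, which allows up to 2.22%. Intron 1 as a whole was at 5.84% and 1.89%, and exon 2 at 24.9% and 11.5%. Farther into the gene the order was the reverse: exon 3 was at 47.8% and 94.0%, and the gene body beyond 2 kb at 55.2% and 89.5%. The CAV1 promoter, like that of CAVIN3, was read deeper in OCI-AML3, with 69.3 and 35.3 calls per CpG, and the part of depth in its differences was not tested.

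CAV2, the partner that forms mixed oligomers with CAV1, lies just before it on the same strand. GENCODE gives it groups of starts that lie far apart. The most upstream TSS belongs to noncoding transcripts, lies 212358 bp before the canonical one and has few CpGs. Around it 26 CpGs averaged 49.2% in OCI-AML3 and 89.1% in OCI-AML5, a difference of −39.9 points and place 250 among all promoters. Around the canonical start of the protein-coding transcript (116139792), 156 CpGs averaged 34.1% and 52.9%, a difference of −18.8.

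The 250 bases before the canonical CAV2 start are shown because most of their CpGs were low in both lines (chr7:116139542-116139791, plus strand, CpGs in capitals).
CAV2: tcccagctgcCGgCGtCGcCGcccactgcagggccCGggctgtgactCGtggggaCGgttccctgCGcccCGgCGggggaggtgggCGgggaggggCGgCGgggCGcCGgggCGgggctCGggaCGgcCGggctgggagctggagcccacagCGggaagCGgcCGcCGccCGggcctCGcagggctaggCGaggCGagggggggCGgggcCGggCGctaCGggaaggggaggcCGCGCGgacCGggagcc
Its 35 CpGs averaged 5.56% in OCI-AML3 and 12.9% in OCI-AML5, where 31 were below 20% and 3 above 66%. A block of 3 CpGs near the upstream end (chr7:116139553-116139559) was at 21.03% and 80.5%. A run of 40 CpGs below 20% in OCI-AML3 and of 46 in OCI-AML5 began at the same base, 116139578, and reached into exon 1. The lines differed on both sides of the run. A block of 3 CpGs before it (chr7:116139368-116139392) was at 38.5% and 97.2%, in the second 500 bp after the start the means were 62.9% and 93.8%, and intron 1, which holds 30 CpGs, was at 21.1% and 48.7%.

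The genes CAV2 and CAV1 lay in a long region of lower methylation in OCI-AML3. The 212358 bp between the upstream and the canonical CAV2 starts averaged 46.2% in OCI-AML3 and 86.9% in OCI-AML5 over 1302 CpGs. The space between the genes was at 51.5% and 77.4%, and CAV1 beyond 5 kb of its start at 55.1% and 90.4%. Of 100 windows of 10 kb within 500 kb of the CAV1 start, 98 were lower in OCI-AML3 and 76 by over 20 points, with medians of 51.7% and 90.0%. Around the members on other chromosomes the count was smaller: CAVIN2 had 38 windows lower by over 20 points, CAV3 37, CAVIN3 24, CAVIN1 6, EHD2 4 and CAVIN4 0. The count of windows lower by any amount did not set the region apart, as it was between 88 (CAVIN4) and 99 (CAVIN2) around these members. Shares over all windows of the genome were not computed.

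The region ended sharply on 1 side. The window of 10 kb that begins 320000 bp after the CAV1 start was at 61.9% in OCI-AML3 and 89.9% in OCI-AML5, and the window that begins at 340000 bp at 88.8% and 94.3%. The window between them was low in both lines, at 30.2% and 38.3%. Farther on the lines differed more again in places, with 62.3% and 78.8% in the window that begins at 400000 bp. The promoters of the neighbouring genes did not follow the region. The promoter of MET, a receptor tyrosine kinase and the next gene after CAV1, was at 26.5% and 27.5% although its body was at 45.8% and 81.5%. The promoter of TES, a focal adhesion protein before CAV2, was higher in OCI-AML3, at 37.02% and 17.1%.

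**Figure D3:**
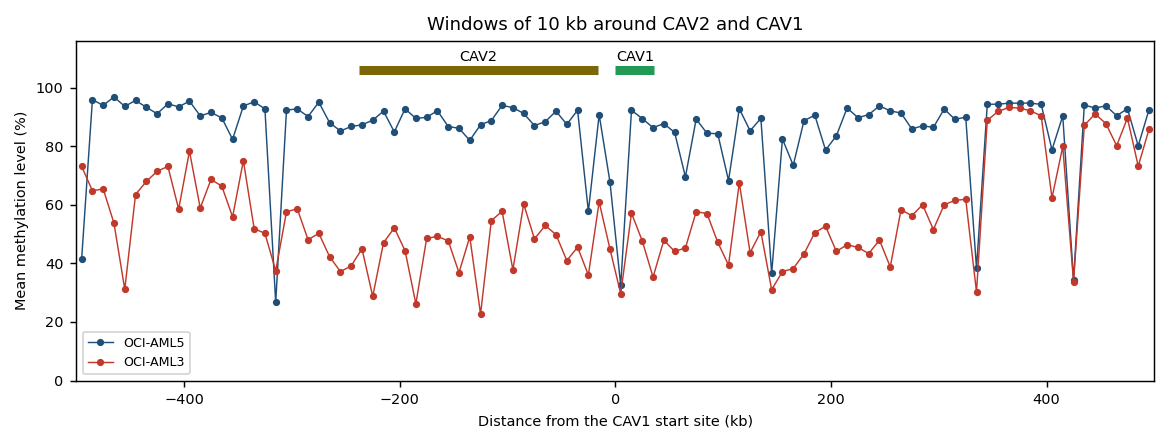
Mean methylation level (percent) of windows of 10 kb by distance from the CAV1 start in kb, OCI-AML3 in red and OCI-AML5 in blue, with the annotated CAV2 and CAV1 genes as bars. OCI-AML3 was lower by over 20 points in 76 of 100 windows. The lines lie closer together in the window from 340000 bp after the start, at 88.8% and 94.3%, and farther apart again in that from 400000 bp, at 62.3% and 78.8%.

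CAV3, the muscle caveolin, was methylated at its start in both lines. Its promoter (chr3:8773488-8777488) averaged 79.6% in OCI-AML3 and 89.4% in OCI-AML5 over 64 CpGs, with 10 CpGs lower and 0 higher. Its canonical transcript was at 81.6% and 88.9%. The annotated gene is 108005 bp long because of a noncoding transcript that runs across OXTR, the oxytocin receptor gene, and averaged 77.3% and 80.2%.

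All 8 blocks of the CAV3 locus with higher levels in OCI-AML3 lay at the start of OXTR, 34 to 36 kb from the CAV3 start. The block of 13 CpGs at chr3:8809805-8809883 was at 74.5% in OCI-AML3 and 18.1% in OCI-AML5, and the block of 7 CpGs at 91.0% and 19.5%. The OXTR promoter window as a whole was at 55.4% and 34.0%. OXTR was named after its values were seen.

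CAVIN1, the cavin needed for caveola formation, had an intermediate CpG island. Its promoter (chr17:40573274-40577274, minus strand) averaged 26.6% in OCI-AML3 and 42.1% in OCI-AML5 over 197 CpGs, with 60 CpGs lower and 10 higher. The 26 CpGs in the 500 bp before the start were at 38.2% and 47.5%. Over the 3 following windows of 500 bp the means were between 12.3% and 16.7% in OCI-AML3 and between 23.9% and 29.9% in OCI-AML5. Neither line was free of methylation in these windows, and OCI-AML3 was the lower one in each. The longest low run in OCI-AML3, of 22 CpGs in exon 1, was at 5.26% against 31.8%. Among means over 500 bp, the lines lay farthest apart in the last 500 bp of the window, with 32.7% and 75.7%. A block of 5 CpGs before the start (−889 to −733 bp) was at 31.3% and 93.9%. The gene body was at 50.6% and 67.0%.

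CAVIN2, a phosphatidylserine-binding cavin, had few CpGs at its start and was mostly methylated. Its promoter (chr2:192709814-192713814, minus strand) averaged 72.2% in OCI-AML3 and 88.7% in OCI-AML5 over 62 CpGs. The difference was concentrated before the start: 6 CpGs in the last 500 bp were at 5.93% and 55.6%, while 18 CpGs in the second 500 bp after the start were at 94.2% and 95.2%. The 250 bases before the start are shown because so few CpGs carry the difference there (chr2:192711815-192712064, minus strand, CpGs in capitals).
CAVIN2: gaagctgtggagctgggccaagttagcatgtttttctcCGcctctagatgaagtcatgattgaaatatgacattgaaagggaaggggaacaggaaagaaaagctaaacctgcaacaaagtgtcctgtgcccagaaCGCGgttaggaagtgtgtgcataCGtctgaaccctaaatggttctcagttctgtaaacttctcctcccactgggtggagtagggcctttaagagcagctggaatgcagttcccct
These 4 CpGs averaged 5.77% in OCI-AML3, on 9 methylated calls of 98, and 62.3% in OCI-AML5, on 83 of 121. A block of 7 CpGs from −345 to 73 bp relative to the start was at 11.3% and 65.8%. The gene body averaged 78.5% and 90.8%.

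CAVIN4, the muscle cavin, had the highest promoter level of the family in both lines. Its promoter (chr9:103338361-103342361, plus strand) averaged 84.5% in OCI-AML3 and 95.8% in OCI-AML5 over 23 CpGs, of which 4 were lower and 0 higher. Exon 1 was at 80.8% and 93.6%, and exon 2 at 66.04% and 91.1%. No CpG of the window was below 20% in either line.

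EHD2, the ATPase at the caveola neck, differed most in exon 1 among its exons and introns. The promoter difference was not confined to exon 1, as it was −9.43 points with 2000 bp upstream only. Its promoter (chr19:48214679-48218679, plus strand) averaged 43.6% in OCI-AML3 and 63.0% in OCI-AML5 over 93 CpGs, with 28 CpGs lower and 0 higher. The 250 bases before the start are shown because they were low in both lines, next to an exon that was not (chr19:48216429-48216678, plus strand, CpGs in capitals).
EHD2: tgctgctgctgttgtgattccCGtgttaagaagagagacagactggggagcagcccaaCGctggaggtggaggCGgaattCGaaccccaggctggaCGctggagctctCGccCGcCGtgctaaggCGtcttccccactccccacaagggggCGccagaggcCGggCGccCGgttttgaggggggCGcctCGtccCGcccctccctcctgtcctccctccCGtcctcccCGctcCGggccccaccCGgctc
These 20 CpGs averaged 0.873% in OCI-AML3 and 5.62% in OCI-AML5. Right after the start, 16 CpGs in a row of exon 1 (10 to 113 bp, chr19:48216689-48216792) were at 10.6% in OCI-AML3 and 66.6% in OCI-AML5. Exon 1 as a whole was at 11.9% and 63.6%.

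EHD2 also differed at inner starts, in both directions. From exon 4 into intron 4, a block of 21 CpGs (chr19:48229304-48229530) that spans annotated starts at 48229426 and 48229461 was at 16.5% in OCI-AML3 and 78.1% in OCI-AML5. In intron 4, within 500 bp of a further start at 48232874, the mean over 27 CpGs was higher in OCI-AML3. It was 58.8% against 36.3%, a difference of 22.6 points. Exon 2 was at 66.8% and 90.9%, exon 4 at 62.5% and 89.4%, and exons 3 and 5 were above 95% in both lines. The gene body averaged 74.0% and 83.6%.

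**Figure D4:**
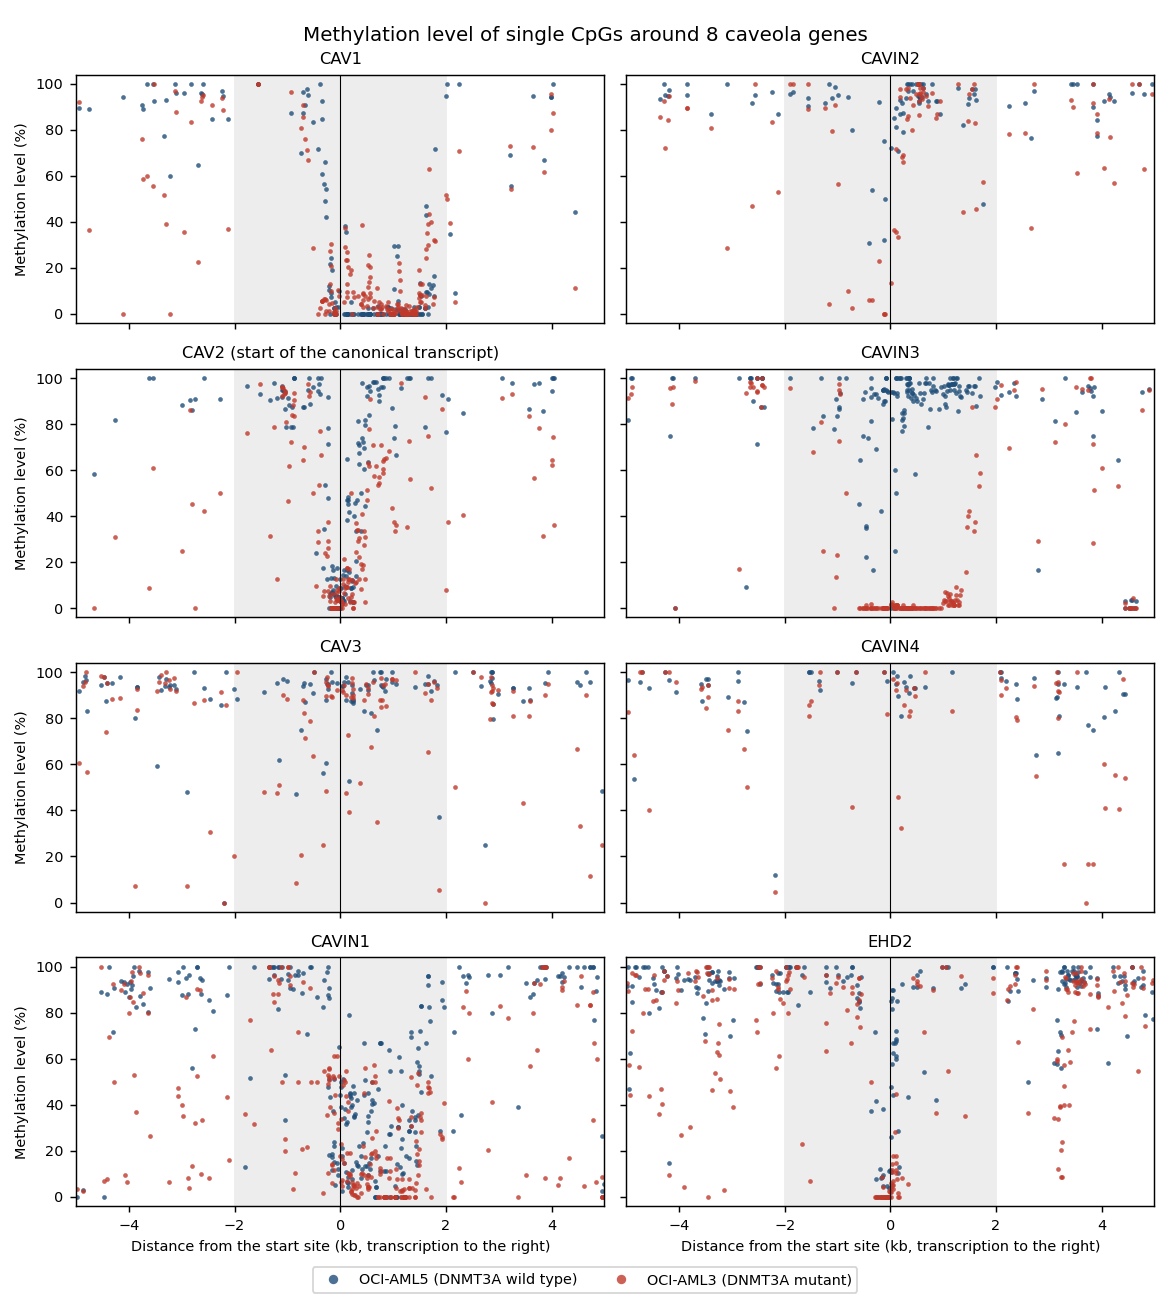
Methylation level (percent) of each CpG with more than 5 reads in both lines by distance from the start of each caveola gene in kb, OCI-AML3 in red and OCI-AML5 in blue, with the promoter window shaded. CAV2 is drawn at its canonical start, so its shaded part is not the window at its first start. CAV1 and CAV2 hold islands low in both lines, CAVIN3 holds 131 CpGs in a row below 20% in OCI-AML3, and CAV3 and CAVIN4 are methylated in both.

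Gene bodies were lower in OCI-AML3 for all 8 genes, as 92.3% of all gene bodies were. They were lower by over 20 points for CAV1, CAV2 and CAVIN3 (3 of 8), against 6.57% of all gene bodies. The body of CAVIN3 lies inside the promoter window that the family was chosen on, so it is not free of that choice. CAV1 and CAV2 are neighbours in the same long region of lower methylation, so their bodies are not separate readings. The count of 3 therefore cannot show whether low gene bodies are more frequent in the family. The median difference was −17.8 points over the 8 and −4.97 over all. The body of CAV1 was at 38.5% in OCI-AML3 and 58.7% in OCI-AML5, that of CAV2 at 45.7% and 85.2%, and that of CAVIN3 at 3.68% and 90.6%. The body of CAVIN4, at 71.2% and 90.3%, came next with a difference of −19.1.

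**Figure D5:**
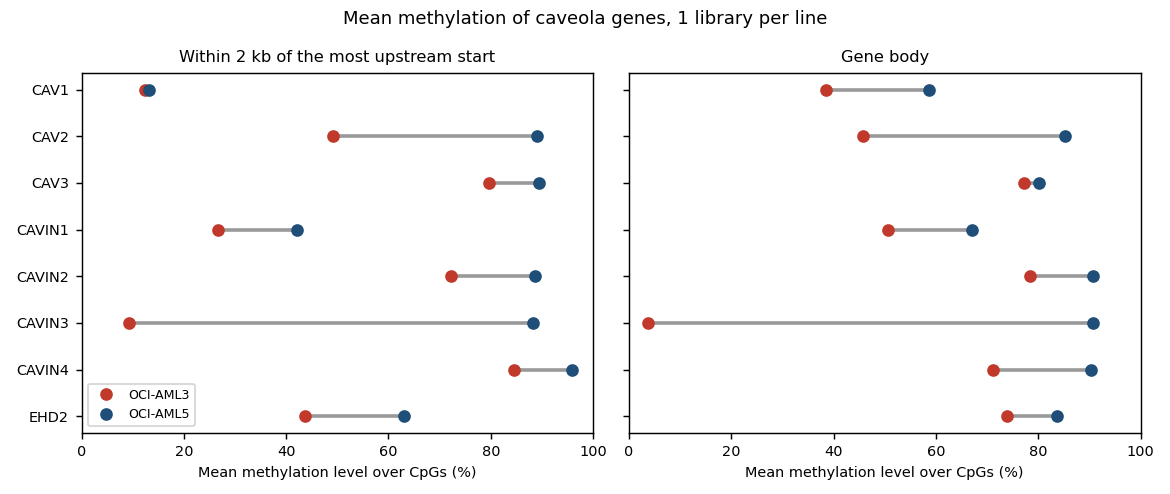
Mean methylation level (percent) of the 8 caveola genes within 2 kb of the most upstream start (left) and over the annotated gene (right), OCI-AML3 in red and OCI-AML5 in blue, 1 library per line. OCI-AML3 is lower in all 16 pairs, least at the CAV1 promoter (12.5% and 13.2%).

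Levels were also split by the number of CpGs nearby, as a description with no test. In the 7 promoter windows other than CAVIN3, pooled over genes of very different levels, CpGs with 1 to 4 CpGs within 100 bp averaged 65.99% in OCI-AML3 and 87.5% in OCI-AML5, and CpGs with 10 or more averaged 16.8% and 24.96%, so the difference went from −21.5 points at sparse CpGs to −8.16 at dense ones. At CAVIN3 the 105 dense CpGs were at 1.03% and 88.5%, a difference of −87.5 points, and its 8 sparse ones differed by −32.9. The dense CpGs are 105 of the 151 behind the value that the family was chosen on, so they add nothing independent of it.

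Short motifs in the 250 bases before the start were counted on both strands for the members other than CAVIN3. The canonical start was used for CAV2, whereas all promoters of the background were taken at their first starts. The GC-box letters GGGCGG occurred in CAV2 (6 matches), CAV1 (3), CAVIN1 (3) and EHD2 (1), and in 48.7% of all 20163 promoters. The 6 CpGs inside the CAV2 matches averaged 9.38% in OCI-AML3 and 15.1% in OCI-AML5, and the 3 inside the CAVIN1 matches 43.9% and 65.3%. CCAAT occurred in CAV3 and CAVIN1, 1 match each, and in 33.1% of all promoters. TATAAA occurred in CAVIN4 (10.1% of all promoters) and CACGTG in none of these 7 (7.17%).

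Other genes of the caveola and its partners were listed for their known roles: the EHD2 relatives EHD1, EHD3 and EHD4, the membrane-bending PACSIN1, PACSIN2 and PACSIN3, the GTPase DNM2, the raft proteins FLOT1 and FLOT2, the actin crosslinker FLNA, and ROR1, SRC, PRKCA, PRKCD, NOS3 and INSR, signalling proteins reported at caveolae. Of these 16 promoters, 14 were lower in OCI-AML3 (84.7% of all promoters were), 3 of them by over 20 points (8.61% of all), and 0 were higher by over 20 points (1.79% of all). The median difference was −7.50 points, against −4.68 over all promoters. SRC, a tyrosine kinase, was at 27.7% in OCI-AML3 and 57.5% in OCI-AML5, FLOT1 at 5.47% and 29.1%, and PRKCD, the kinase that CAVIN3 binds, at 57.2% and 80.7%. EHD3 was higher by 6.18 points and ROR1 by 2.13. Of the 16 gene bodies, 15 were lower, and 1, that of ROR1 (45.8% and 70.6%), by over 20 points, against 92.3% and 6.57% of all gene bodies.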

How the data were processed

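Libraries of OCI-AML3 and OCI-AML5 were bisulfite converted and sequenced paired-end. The authors aligned the reads to hg19 with Bismark, and the submitters' processing notes also name Bowtie 0.12.8. Whether duplicate reads were removed is not given in the sources used here. The deposited values were raw counts at each CpG, 1 column for methylated and 1 for unmethylated calls, strands combined, without smoothing or normalization. Listed positions were checked against GRCh37, and every CpG of chromosomes 1 to 22 and X was a CG there. Columns were told apart on the mitochondrial genome, where 0.168% and 0.101% of calls were methylated.

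Levels were computed with Python 3.11.15, numpy 2.4.6 and pandas 2.3.3 over CpGs with more than 5 reads in both lines, using GENCODE 44 lifted to GRCh37 and promoters with at least 10 such CpGs. Blocks were at least 3 consecutive CpGs with separate Wilson 95% intervals in 1 direction and gaps of at most 300 bp. The code was tested on simulated data. The members and lists were chosen with earlier results of these data known. The genes named were the 8 members, the 16 caveola-associated genes, the nearest genes where a result turned on them, markers, and the 5 promoters nearest to CAVIN3. With 1 library per line, no test between the lines was made. Alternatives covered reads, averaging, window, start site and threshold. Upstream sequences of CAVIN3 and CAV1 are not reported here.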

Additional observations from a re-analysis of the deposited data

How the results depend on the processing

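No paired analysis was possible because each line was 1 library. The number of caveola promoters lower by over 20 points, 2 as reported, was 1 at canonical starts, where CAV2 drops out, and 6 with a threshold of 10 points. It was 3 under each of 4 settings: EHD2 passed at −22.1 with at least 10 reads, −20.5 over pooled calls and −21.2 with 1000 bp on either side, and CAVIN2 at −35.6 with 2000 bp upstream only. The number of associated promoters, 3 as reported, was 1 with 2000 bp upstream only, 7 with a threshold of 10 points and 0 with 30 points. It was 4 over pooled calls, 2 with 1000 bp on either side, 2 at canonical starts and 3 with at least 10 reads. The CAVIN3 promoter difference, −79.1 points as reported, was −81.1 with at least 10 reads, −85.5 over pooled calls, −81.7 with 1000 bp on either side and −66.1 with 2000 bp upstream only. The 284 lower CpGs became 278 with at least 10 reads and 232 with 99% intervals. Of 66 further recomputed values of single genes, 25 moved and 0 changed sign. Some of the 66 could not move. The canonical start is the first start for CAV3, CAVIN1, CAVIN2, CAVIN4 and EHD2. The canonical transcript holds the same CpGs as the whole gene for CAV1, CAVIN1, CAVIN2, CAVIN4 and EHD2. The CAV1 promoter, −0.715 points as reported, was −19.6 with 2000 bp upstream only, and the CAV3 gene body was −7.32 over the canonical transcript, a setting added after seeing the data. The causes were not tested. Depth and the missing replicates limit all values.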
